A study of Homo sapiens with 5 samples.

Results

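Genomic imprinting was read in CFIm25-mutant human embryonic stem cells through 36 genes with known imprinted expression, taken by gene symbol from a table of 33857 genes. Of these 36 symbols, 34 had a row, and PEG3 and ZIM2 were not analysed here. A gene was tested when it reached a normalized count of 10 in at least 2 libraries, which 26 of the 34 did. The cells were H9, an established human embryonic stem cell line grown in mTeSR medium, and poly(A+) RNA was sequenced from 5 samples. The 2 mock control samples were clones that had received a CRISPR/Cas9 vector with no guide. The 3 CFIm25-m samples were clones made with CRISPR/Cas9 and 3 different guide RNAs near the start codon of NUDT21, the gene that encodes the polyadenylation factor CFIm25. GEO's titles call these samples CFIm25 KO and the controls control, and the deposited count columns of the controls are headed H9. By the study's methods the clones kept a reduced amount of CFIm25 with small in-frame losses near its N terminus, so they are not nulls, and each is a single clone with its own guide. Both groups went through transfection and single-clone outgrowth, and they differ in the guide RNA.

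An imprinted gene is transcribed from the maternal or the paternal copy only, by a DNA methylation mark that is set in the germline and copied at each cell division. Many of these genes lie in clusters under 1 control region, where a noncoding RNA from one parental copy accompanies the silencing of coding genes on that copy. Human pluripotent cells in culture can lose or gain such marks, a change that is inherited by all descendants of a cell and can therefore differ from clone to clone. The counts used here add both parental copies, so the allele of origin and the methylation mark were not measured, and loss of imprinting cannot be told apart from another change in transcript level.

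Library totals were between 18754108 and 23372391 reads, so that 3 reads, the limit that a count of 0 allows, stood for 2.70 to 3.46 normalized counts. Such limits and the Poisson counting intervals of single libraries below cover counting error only. The limma intervals of log2 fold changes rest instead on the spread between samples. The edited gene NUDT21 stood at 6503 and 6398 normalized counts in the mock controls and at 4035, 3281 and 3400 in CFIm25-m 1, 2 and 3, a log2 fold change of −0.86 (limma, adjusted p = 0.00431). The 8 pluripotency markers listed for the check of the cell type were all tested, and none passed the threshold, with a sum of 214447 to 218409 normalized counts in mock control and 188945 to 202216 in CFIm25-m. The groups did not overlap for 7 of these 8, where 36.8% of all tested genes did not overlap. ZFP42 (REX1), which the paper names as a pluripotency marker, was not in this list. It fell to 4.01, 3.60 and 0 normalized counts in the clones, as given below. Of the markers of other lineages, 4 of 6 listed trophoblast genes, and 4 of 8 in each of the neuroectoderm, mesoderm and endoderm lists, stayed below 10 in every library. Their sums ran from 621 to 693 in mock control and 501 to 593 in CFIm25-m for trophoblast, from 12780 to 13496 and 10682 to 13197 for neuroectoderm, from 2721 to 2809 and 2779 to 3757 for mesoderm, and from 45.4 to 70.3 and 81.9 to 115 for endoderm. Most of the neuroectoderm sum was NES, at 12428 and 13158 in mock control, and most of the mesoderm sum was KDR, at 2608 and 2684. These sums thus speak for little beyond those genes. Of the 4 tested neuroectoderm genes OTX1 rose (log2 fold change 1.10, limma adjusted p = 0.04997) and DCX fell (−1.14, limma adjusted p = 0.0064). Over all tested genes 0.941% rose and 0.936% fell. The part of other cell types in the results below was not tested.

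NNAT rose in CFIm25-m, MEST and NLRP2 fell, and PEG10 was lower in 1 of the 3 clones alone. PEG10 and the other 22 tested imprinted genes did not pass the test for a difference between the groups. Over all 19232 tested genes 1.88% passed the threshold of 0.05 on the adjusted p, 0.941% as higher and 0.936% as lower, and among the 26 imprinted genes 3 did, 1 higher and 2 lower. Both counts moved with the libraries used: the share of all genes was 0.349% without mock control 1, 0.374% without mock control 2, 0.757% without CFIm25-m 1, 1.06% without CFIm25-m 2 and 5.55% without CFIm25-m 3, with 0, 1, 1, 1 and 3 imprinted genes called. The median log2 fold change was −0.09 over the imprinted genes and −0.01 over all tested genes, and the median of its absolute size was 0.27 and 0.17. These p-values set the difference against the spread between the clones sequenced, with 2 samples in one group and 3 in the other. For each gene limma draws that spread toward that of genes at a similar level, so the gene's own spread is only part of it.

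**Figure D1:**
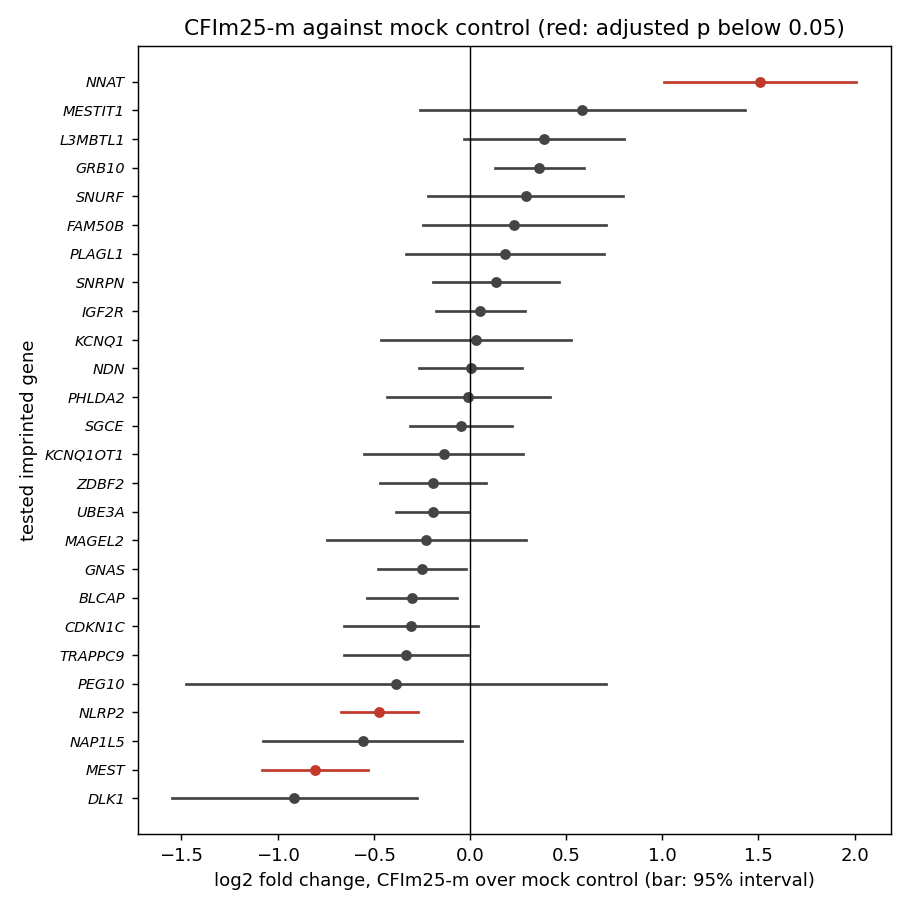
Log2 fold change of CFIm25-m over mock control (horizontal axis) for the 26 tested imprinted genes (vertical axis), with 95% limma intervals as bars and genes at an adjusted p below 0.05 in red. NNAT (1.51) lies to the right, MEST (−0.80) and NLRP2 (−0.47) to the left, and PEG10 has the widest interval on the left side, from −1.48 to 0.71.

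NNAT (ENSG00000053438), on chromosome 20 from 37521206 to 37523693 on the plus strand (GRCh38), encodes neuronatin, a small membrane protein of the endoplasmic reticulum, and is expressed from the paternal copy. It stood at 135 and 165 normalized counts in the mock controls and at 529, 481 and 304 in CFIm25-m 1, 2 and 3. All 3 clones lay above both controls, the third clone nearest to them. The group mean went from 150 ± 21.3 (SD, n = 2) to 438 ± 119 (SD, n = 3), a ratio of 2.92. The log2 fold change was 1.51 with a standard error of 0.22, a 95% interval of 1.01 to 2.01 and an adjusted p of 0.0094 (limma). The adjusted p was 0.0652 without mock control 1, 0.0735 without CFIm25-m 1 and 0.0610 without CFIm25-m 2, with log2 fold changes of 1.36, 1.35 and 1.42.

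NNAT lies inside an intron of BLCAP, a gene for a small membrane protein, and all of its 2488 bases overlap BLCAP on the other strand. BLCAP stood at 1433 and 1476 normalized counts in the mock controls and at 1062, 1250 and 1235 in the clones. The direction was thus the reverse of that of NNAT, with the clones below both controls, and its log2 fold change of −0.30 did not pass (adjusted p = 0.208). Of the 5 tested genes within 250 kb of NNAT none passed, with log2 fold changes between −0.30 and 0.06.

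MEST (ENSG00000106484), on chromosome 7 from 130486171 to 130506465 on the plus strand, encodes a putative hydrolase and has a paternally expressed isoform. The mock controls held 3530 and 3331 normalized counts of MEST, and the clones held 2244, 2021 and 1674. Every clone lay below both controls, and the third clone was lowest. The mean went from 3431 ± 141 (SD, n = 2) to 1980 ± 287 (SD, n = 3), a ratio of 0.577. The log2 fold change was −0.80 with a standard error of 0.12, a 95% interval of −1.08 to −0.53 and an adjusted p of 0.0105 (limma). It was 0.119 without mock control 1, 0.0787 without mock control 2 and 0.0516 without CFIm25-m 2, with log2 fold changes of −0.76, −0.84 and −0.82.

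MESTIT1, a noncoding RNA transcribed against MEST from the paternal copy, overlaps it by 4863 bases on the other strand. Its values were 11.5 and 14.5 normalized counts in mock control and 15.03, 21.6 and 24.0 in the clones. The clones lay above the controls at a level near the filter, and the log2 fold change of 0.58 did not pass (adjusted p = 0.503). The 4 tested genes within 250 kb of MEST had log2 fold changes from −1.12 to 0.58, and none passed.

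The start sites of this pair are shown because MEST has several starts and its imprinted isoform uses only some of them. MEST has 5 windows of 300 bases in the RefSeq promoter set for GRCh38.p14, each with 250 bases before and 50 after a start. Of the 5 in order along the chromosome, the second, at lower coordinates than the MESTIT1 start, and the last, at higher coordinates, are printed. Capitals mark TGCCGC or its reverse complement GCGGCA, the hexamer bound by ZFP57, a zinc-finger protein that protects methylated imprints.
MEST chr7:130486097-130486396, plus strand: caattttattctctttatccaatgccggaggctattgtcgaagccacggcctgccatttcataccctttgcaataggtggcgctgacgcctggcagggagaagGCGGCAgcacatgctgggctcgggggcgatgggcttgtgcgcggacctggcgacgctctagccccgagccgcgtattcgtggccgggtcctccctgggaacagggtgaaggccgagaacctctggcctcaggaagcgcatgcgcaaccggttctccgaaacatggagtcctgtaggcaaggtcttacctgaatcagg
MEST chr7:130491835-130492134, plus strand: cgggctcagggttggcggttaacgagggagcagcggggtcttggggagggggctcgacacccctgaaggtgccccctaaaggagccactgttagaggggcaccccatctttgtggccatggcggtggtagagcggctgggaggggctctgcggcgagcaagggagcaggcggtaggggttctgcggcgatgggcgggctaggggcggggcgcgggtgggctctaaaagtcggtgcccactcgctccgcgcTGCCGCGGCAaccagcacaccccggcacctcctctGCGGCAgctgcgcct
MESTIT1 chr7:130490928-130491227, minus strand: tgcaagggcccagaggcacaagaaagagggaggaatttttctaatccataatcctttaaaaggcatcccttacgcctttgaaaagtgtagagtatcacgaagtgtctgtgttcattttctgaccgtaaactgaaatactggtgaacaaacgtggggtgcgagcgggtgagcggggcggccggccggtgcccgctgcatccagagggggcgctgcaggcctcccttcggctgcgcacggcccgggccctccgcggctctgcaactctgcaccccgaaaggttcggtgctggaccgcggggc

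The MEST window at the lower coordinates held 1 match and 22 CpG. The one at the higher coordinates held 3 matches, of which 2 share bases in one run, and 25 CpG. The MESTIT1 window held no match and 22 CpG. Another MEST window, not printed, shares 149 bases with that of MESTIT1. Gene counts cannot say which MEST start the lower count came from.

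NLRP2 (ENSG00000022556), on chromosome 19 from 54953130 to 55001142 on the plus strand, encodes an NLR family protein of oocytes and early embryos whose loss in mothers has been tied to imprinting defects in children. It stood at 3919 and 3935 normalized counts in the mock controls and at 2725, 3003 and 2776 in the clones. The 3 clones were close to each other and all below both controls. The mean went from 3927 ± 11.8 (SD, n = 2) to 2835 ± 148 (SD, n = 3), a ratio of 0.722. The log2 fold change was −0.47 with a standard error of 0.089, a 95% interval of −0.67 to −0.27 and an adjusted p of 0.0307 (limma). The adjusted p was 0.4002 without mock control 1, 0.409 without mock control 2 and 0.107 without CFIm25-m 1, while the log2 fold change stayed between −0.51 and −0.44 when any 1 library was left out.

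NLRP2 overlaps NLRP7, a related gene in which maternal variants cause molar pregnancies, by 13183 bases on the other strand. NLRP7 had 92.2 and 106 normalized counts in mock control and 46.1, 91.8 and 71.2 in the clones. Its clones were also below the controls, and the difference, −0.55 on the log2 scale, missed the threshold (adjusted p = 0.403). Of the 16 tested genes within 250 kb of NLRP2 none passed, and their median log2 fold change was −0.19. The NLRP2 window printed here is 1 of its 2 in the RefSeq set, and it holds 12 CpG and no match to the hexamer.
NLRP2 chr19:54966124-54966423, plus strand: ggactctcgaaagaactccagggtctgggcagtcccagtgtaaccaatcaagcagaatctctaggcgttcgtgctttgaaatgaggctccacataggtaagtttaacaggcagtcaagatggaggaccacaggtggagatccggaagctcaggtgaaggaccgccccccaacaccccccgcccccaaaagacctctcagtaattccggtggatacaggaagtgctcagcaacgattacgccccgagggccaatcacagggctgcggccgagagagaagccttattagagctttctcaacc

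PEG10 (ENSG00000242265), on chromosome 7 from 94656325 to 94669695 on the plus strand, is a gene derived from a retrotransposon that encodes a Gag-like protein and is expressed from the paternal copy. It stood at 2136 and 2149 normalized counts in the mock controls, at 2553 in CFIm25-m 1, at 644 in CFIm25-m 2 and at 2687 in CFIm25-m 3. The second clone was below both controls and the other 2 were above them. The log2 differences from the mock control mean were 0.25, −1.73 and 0.33, and the mock mean was 3.33 times the level of the second clone. Counting error covers 597 to 693 normalized counts in CFIm25-m 2, 2455 to 2654 in CFIm25-m 1 and 2589 to 2789 in CFIm25-m 3 (95% exact Poisson intervals), and the gap between CFIm25-m 2 and the others exceeds it. There is 1 library of each clone, and no test of a single clone was run.

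Between the groups PEG10 did not pass the test, with a log2 fold change of −0.38, a 95% interval of −1.48 to 0.71 and an adjusted p of 0.748 (limma). Without CFIm25-m 2 it was 0.29 with an adjusted p of 0.163, so the direction of the group value rests on that clone. PEG10 shares a promoter region with SGCE, the gene for epsilon-sarcoglycan, which is read from the other strand of the same paternal copy and overlaps PEG10 by 248 bases. SGCE stood at 492 and 437 normalized counts in the mock controls and at 458, 466 and 422 in the clones. The second clone of SGCE lay between the controls (log2 fold change −0.05, adjusted p = 0.880). The 4 tested genes within 250 kb of PEG10, SGCE among them, differed from the mock mean in CFIm25-m 2 by −0.12 to 0.42 on the log2 scale.

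**Figure D2:**
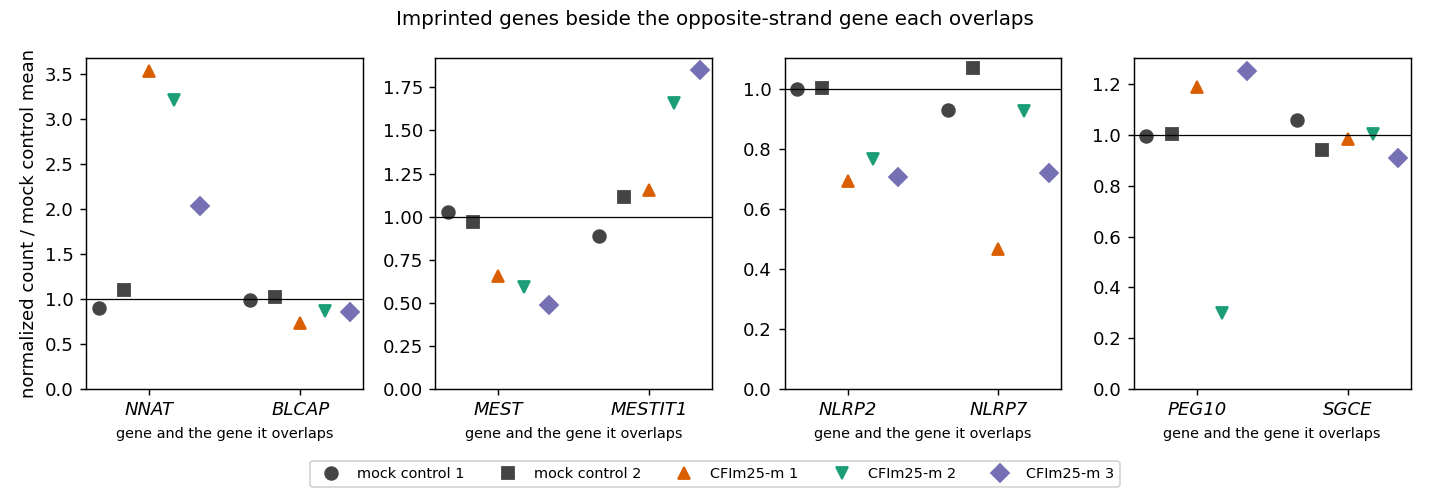
Normalized count divided by the mock control mean (vertical axes, each panel with its own scale) of 4 imprinted genes and the opposite-strand gene each overlaps, with 1 point for each of the 2 mock control and 3 CFIm25-m libraries and a line at a ratio of 1. NNAT points of the clones lie above the line and those of BLCAP below it, MEST lies below and MESTIT1 above, NLRP2 and NLRP7 lie below, and PEG10 is low in CFIm25-m 2 (0.300), where SGCE is not.

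The range between the 3 clones, the highest minus the lowest value on the log2 scale, was 2.06 for PEG10. It exceeded 1 in 11.1% of all tested genes and in 1 of the 26 imprinted genes, PEG10. The median range was 0.32 in the imprinted genes and 0.36 in all tested genes. Among the 4786 tested genes with a mean of at least 1000 normalized counts, 22 (0.460%) had a range over 1 and PEG10 had the widest. That order depends on the level chosen, since 4 of 7604 genes with a mean of at least 500 reached the range of PEG10, itself included, and 198 of all tested genes did. The 9 imprinted genes with a mean of at least 1000 had a median range of 0.25, beside 0.24 in all 4786.

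**Figure D3:**
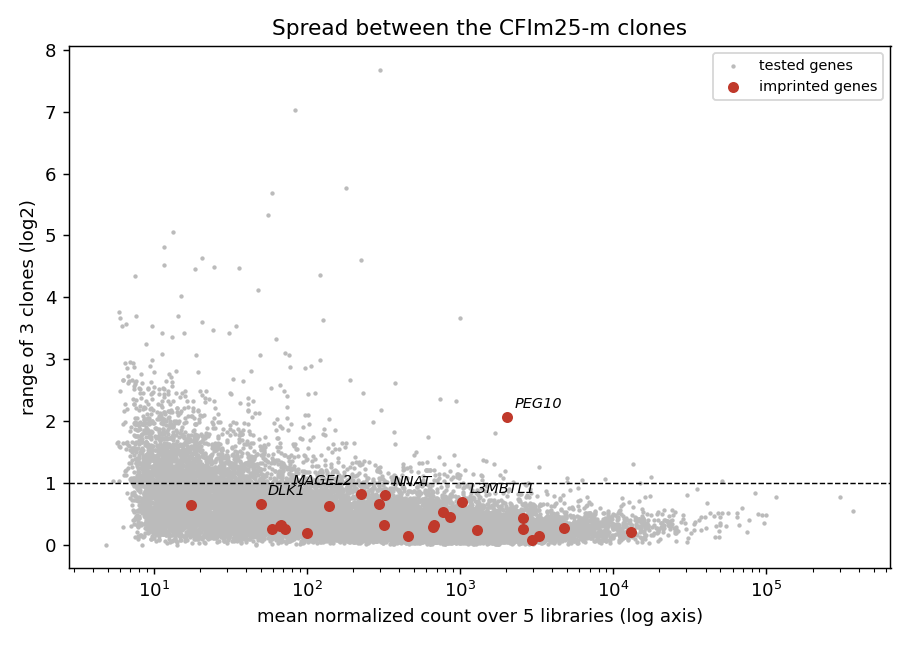
Range between the 3 CFIm25-m clones in log2 units (vertical axis) against the mean normalized count over all 5 libraries (horizontal axis, log scale) for the tested genes, with the imprinted genes marked. PEG10 (2.06) stands above the other imprinted genes, and ranges widen toward low counts.

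Counted clone by clone, CFIm25-m 1 was more than 2-fold from the mock control mean for 1 imprinted gene (NNAT), where 5% of all tested genes were. CFIm25-m 2 was past 2-fold for 2 (NNAT and PEG10), with 5.16% of all genes. CFIm25-m 3 was past 2-fold for 3 (NNAT, MEST and DLK1), with 8.02% of all genes. Its values for NNAT (1.01) and MEST (−1.04) lie close to the limit of 1 on the log2 scale, and without mock control 1 the counts of imprinted genes were 1, 3 and 1 in CFIm25-m 1, 2 and 3. With a pseudocount of 5, TMM or total count scaling, CFIm25-m 2 and 3 had 2 each. At least 1 clone was past 2-fold for 4 of the 26, with 12.4% of all genes, and all 3 clones for NNAT alone, with 1.53% of all genes. Between the mock controls no imprinted gene was 2-fold apart, where 3.29% of all genes were. All of these are single libraries, so the counts describe clones and carry no test.

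**Figure D4:**
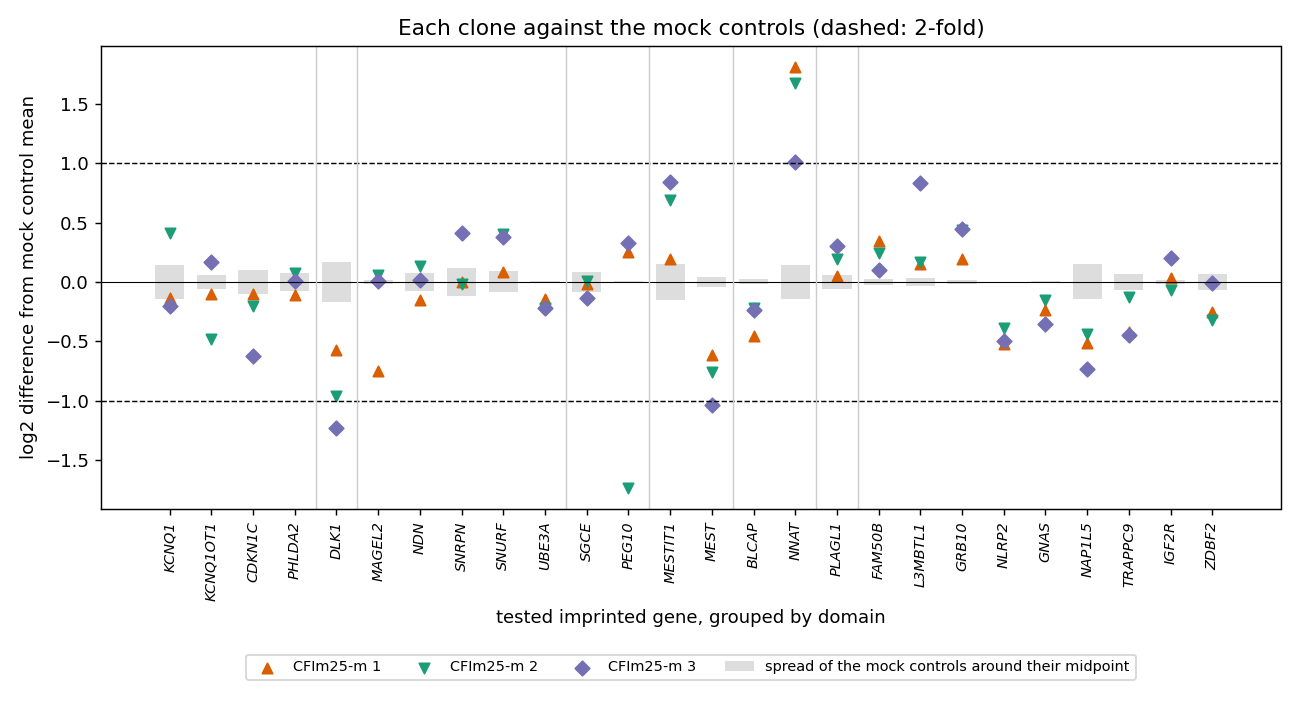
Log2 difference of each CFIm25-m clone from the mock control mean (vertical axis) for the 26 tested imprinted genes in order of their clusters (horizontal axis), with gray boxes for the spread of the mock controls and dashed lines at 2-fold. PEG10 in CFIm25-m 2 (−1.73) and MAGEL2 in CFIm25-m 1 (−0.75) are single low points, while NNAT is past 2-fold in all 3 clones.

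The groups did not overlap for 13 of the 26 imprinted genes, where 36.8% of all tested genes did not overlap. In 8 the clones lay below both controls (19.8% of all genes) and in 5 above (17% of all genes). The 8 were GNAS, MEST, NLRP2, UBE3A, BLCAP, NAP1L5, TRAPPC9 and DLK1, and the 5 were GRB10, NNAT, L3MBTL1, FAM50B and MESTIT1. At an unadjusted p under 0.05 there were 10 of 26, with 15.1% of all genes. The log2 fold change was below 0 for 15 of 26, with 51.8% of all genes.

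By the parental copy in use, 16 paternally expressed genes were tested, of which 8 were lower, 8 higher and 2 passed (NNAT and MEST), with a median log2 fold change of −0.02. MEST was counted here, although its paternal expression belongs to an isoform, and not with the isoform-dependent genes below. Of the 4 tested maternally expressed genes 3 were lower, 1 was higher and 1 passed (NLRP2), with a median of −0.16. The 6 whose imprinting depends on the isoform, tissue or person had 4 lower and 2 higher, and none passed, with a median of −0.22. The summed normalized count of all listed imprinted genes was 41267 and 41325 in the mock controls and between 36086 and 37315 in the clones, and GNAS made up the largest piece of it.

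**Figure D5:**
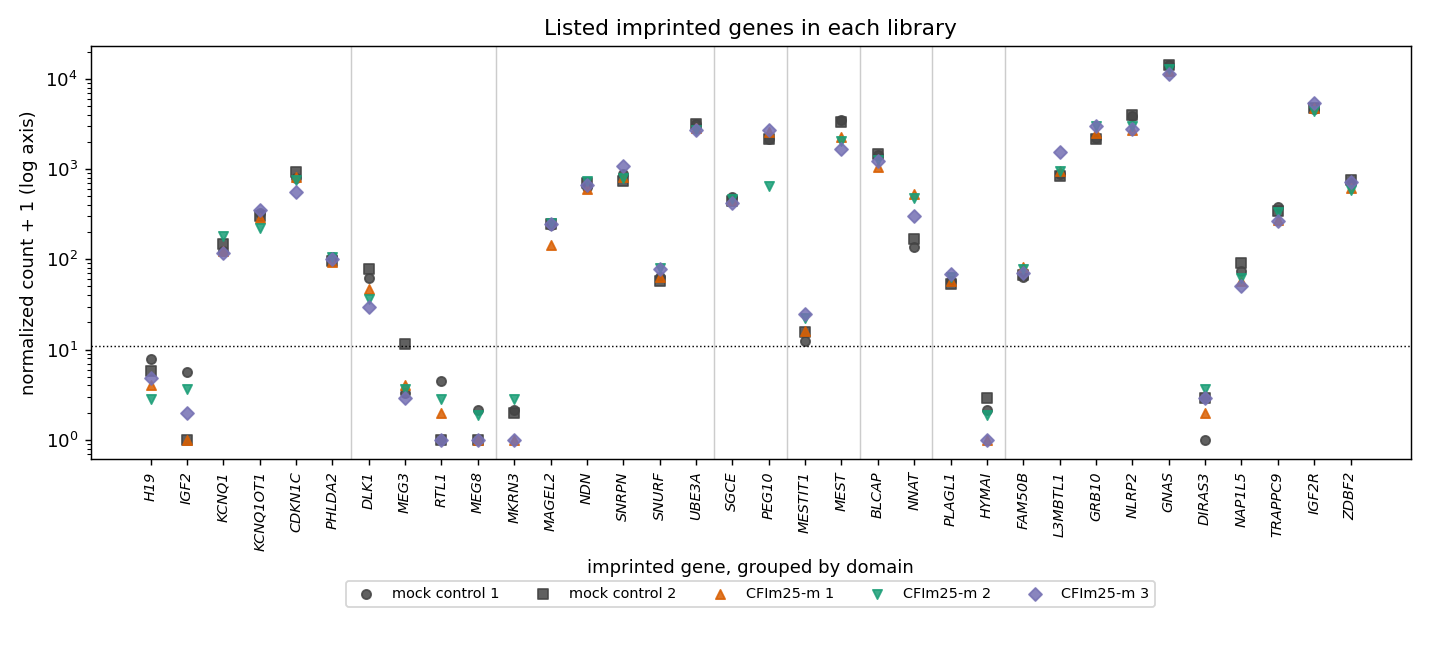
Normalized count + 1 (vertical axis, log scale) of the 34 listed imprinted genes (horizontal axis, grouped by cluster) in each of the 5 libraries, with 1 point a library and a dotted line at the filter of 10. Genes such as GNAS and IGF2R are among the highest in every library, while H19, IGF2 and MEG3 are at or under 11 reads.

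Transcript levels between genes were compared per kb of gene model. GNAS, the gene for the stimulatory G protein alpha subunit, was highest at 1073 normalized counts per kb in the mock control mean, followed by MEST at 716 and NLRP2 at 622. CDKN1C at 349, NDN at 342 and PEG10 at 320 came next. Those 3 differ by little beside the spread between libraries. At the low end of the tested genes were KCNQ1OT1 at 3.38 and MESTIT1 at 3.16.

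In the chromosome 11 cluster, 4 of 6 listed genes were tested and none passed. H19, a maternally expressed noncoding RNA, and IGF2, the paternally expressed growth factor next to it, were near 0: H19 had 6 and 5 reads in mock control and 3, 2 and 4 in CFIm25-m, and IGF2 had 4 and 0 reads and then 0, 3 and 1. At this depth a gain or loss of the imprint between them could not be read from expression. CDKN1C, a maternally expressed cyclin-dependent kinase inhibitor, stood at 805 and 927 normalized counts in the mock controls and at 807, 754 and 561 in the clones. The third clone was lowest, the groups overlapped, and the log2 fold change of −0.31 did not pass (adjusted p = 0.394). It was −0.20 without mock control 2 and −0.15 without CFIm25-m 3.

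KCNQ1OT1 is the paternally expressed noncoding RNA that silences CDKN1C, PHLDA2 and KCNQ1 on the same copy. It stood at 322 and 297 normalized counts in the mock controls and at 289, 221 and 348 in the clones. Its second clone was lowest, and that of KCNQ1, a potassium channel gene, highest (122 and 149 in mock control, and 123, 181 and 117 in the clones). KCNQ1OT1 lies within KCNQ1 on the other strand, over 91667 bases, and reads of the pair may not be fully separate. PHLDA2, a maternally expressed growth restrainer of the placenta, had a log2 fold change of −0.01 with a 95% interval of −0.43 to 0.41.

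In the chromosome 14 cluster DLK1, a paternally expressed membrane ligand related to those of Notch, was the only 1 of 4 genes to be tested. It stood at 61.1 and 77.2 normalized counts in the mock controls and at 46.1, 35.1 and 28.9 in the clones. All 3 clones lay below both controls and the third was lowest, at a log2 difference of −1.23. The fitted log2 fold change of −0.91 with a standard error of 0.29 did not pass (adjusted p = 0.166). The maternally expressed MEG3, a noncoding RNA whose silencing has been described in cultured pluripotent lines, had 2 and 11 reads in mock control and 3, 3 and 2 in CFIm25-m. MEG8 had at most 1 read in a library and RTL1 at most 3.

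In the chromosome 15 cluster of Prader-Willi and Angelman syndromes, 5 of 6 listed genes were tested and none passed. NDN, a paternally expressed MAGE family gene, stood at 627 and 695 normalized counts in the mock controls and at 596, 727 and 669 in the clones, a log2 fold change of 0.00 with a 95% interval of −0.26 to 0.27. The clones of NDN lay on both sides of the controls. MAGEL2, its neighbour of the same family, stood at 239 and 245 in the mock controls and at 143, 252 and 243 in the clones. Only its first clone departed from the others, at a log2 difference of −0.75, with counting intervals of 121 to 169 in that clone and 207 to 273 in mock control 1.

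SNRPN, which encodes a protein of the spliceosome, stood at 875 and 742 normalized counts in the mock controls and at 807, 797 and 1079 in the clones. SNURF, the upstream reading frame of the same transcript, stood at 63.4 and 56.0 and then at 63.1, 79.2 and 77.9. These 2 models share 22865 bases on the same strand, so their counts depend on how shared reads were assigned. UBE3A, a ubiquitin ligase imprinted in neurons only, had the narrowest range of the clones in this cluster, 0.07, at 2859, 2717 and 2726 against 3186 and 3145 in the mock controls (log2 fold change −0.19, adjusted p = 0.325). It overlaps the antisense gene SNHG14 by 85735 bases. The shared start of SNURF and SNRPN, the control region of the cluster, is shown for its 2 matches to the hexamer among 18 CpG.
SNURF and SNRPN chr15:24954737-24955036, plus strand: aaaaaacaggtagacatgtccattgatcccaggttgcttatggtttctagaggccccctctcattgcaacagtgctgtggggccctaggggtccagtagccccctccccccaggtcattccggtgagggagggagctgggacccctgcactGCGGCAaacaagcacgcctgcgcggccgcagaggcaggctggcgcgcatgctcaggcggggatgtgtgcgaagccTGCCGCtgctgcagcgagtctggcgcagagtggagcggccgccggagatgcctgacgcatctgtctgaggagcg

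Over all imprinted genes with a window, 23 in number with 50 distinct windows, 21 windows (42%) held the hexamer, where 16.7% of 35116 promoter windows did. They belonged to 15 genes. The median CpG count was 18 in the windows of imprinted genes and 14 in all. A match describes the letters only, and windows of 1 gene can overlap.

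GNAS stood at 14246 and 14341 normalized counts in the mock controls and at 12111, 12849 and 11188 in the clones. The clones were below both controls, and the log2 fold change of −0.25 with a standard error of 0.10 did not pass (adjusted p = 0.287). PLAGL1, a paternally expressed zinc-finger gene that is altered in transient neonatal diabetes, stood at 56.5 and 52.1 in the mock controls and at 56.1, 62.1 and 67.3 in the clones. The groups overlapped narrowly, and the log2 fold change was 0.18 (adjusted p = 0.745), or 0.12 without CFIm25-m 3.

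L3MBTL1, a paternally expressed chromatin reader, was high in CFIm25-m 3 alone, at 1530 normalized counts against 949 and 961 in the other 2 clones and 876 and 837 in the mock controls (log2 fold change 0.38, adjusted p = 0.368). GRB10, an adaptor that restrains insulin signalling, was higher in all 3 clones, by 0.36 on the log2 scale, which missed the threshold (adjusted p = 0.133). The remaining single genes, namely IGF2R, ZDBF2, NAP1L5, TRAPPC9 and FAM50B, had log2 fold changes from −0.56 to 0.23. HYMAI, DIRAS3 and MKRN3 had at most 3 reads in a library. The gene models of 23 of the 34 listed imprinted genes overlap another listed gene, 20 of them on the opposite strand, and the strand setting of the counting is not given in the sources used here.

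Factors that set or keep imprints were read from a list of 18 genes, of which 17 were tested. Among them 1 passed, as lower, where 0.936% of all tested genes did. It was ZFP42 (REX1), a zinc-finger gene of pluripotent cells, which stood at 2306 and 2403 normalized counts in the mock controls and at 4.01, 3.60 and 0 in the clones (adjusted p = 0.000123). The paper reports the fall of ZFP42, and the list was chosen with earlier results known. The median log2 fold change of the 17 was −0.12. The log2 fold change was 0.63 for ZFP57 (limma adjusted p = 0.399), −0.33 for TET1 (0.123) and −0.33 for DNMT3B (0.293). A clone range over 1 was seen in 2 of the 17, ZFP42 and DNMT3L, where 11.1% of all tested genes had one. That of ZFP42 comes from 4.01, 3.60 and 0 normalized counts, close to the limit that a count of 0 allows. It passed the filter through the mock controls alone, and its range is not read as a spread between clones. DNMT3L, near the filter, had 13.8 and 10.6 normalized counts in mock control and 12.0, 1.80 and 0 in the clones (limma adjusted p = 0.352). The groups did not overlap for 12 of the 17, where 36.8% of all tested genes did not.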

How the data were processed

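Poly(A+) RNA-seq was made from 2 mock control and 3 CFIm25-m samples. The authors deposited a table with the normalized count of every gene in every sample, a signal in which gene counts were divided by the library's size factor, with gene coordinates. The submitters' processing notes name HISAT2, featureCounts, Subread, DESeq2 and hg38. The annotation release and the strand setting are not given in the sources used here. The authors also deposited group means, log2 fold changes and p-values of their own comparison, which were not used.

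The 36 imprinted genes, their parental copies and the gene lists were chosen with earlier results of these data known. Symbols were matched exactly. Genes that reached a normalized count of 10 in 2 or more libraries were fitted with limma 3.58.1 (mean-variance trend) in R 4.3.3 on log2(normalized count + 1), with Benjamini-Hochberg adjustment over all 19232 tested genes. Fold changes are on that scale, which understates low genes. The scripts were tested on simulated data. Each library's values were whole multiples of 1 step (100% within 0.01 of a read), and the recovered reads were tested with edgeR 4.0.16 (quasi-likelihood, 174 genes higher and 174 lower) and DESeq2 1.42.0 (349 and 280) as alternatives. Other alternatives changed the pseudocount, the filter, the scaling, the trend and the replicate block, and left out each library in turn. A permutation of the 5 samples cannot go below p = 0.1.

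Values in every sample are given for genes that passed, that were past 2-fold in a clone or had a clone range over 1, and for the highest gene per kb of each cluster. Values of other genes were chosen for print after they were seen. Promoter sequences are from RefSeq (GRCh38.p14), where 23 of the 36 symbols had an entry. The genome at hand was GRCh37 and was not used.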

Additional observations from a re-analysis of the deposited data

How the results depend on the processing

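NNAT, MEST and NLRP2 kept their direction under every alternative, and each passed with edgeR, DESeq2, other pseudocounts, filters and scalings. Without the mean-variance trend none passed (adjusted p = 0.128, 0.143 and 0.173), so that 0 imprinted genes were called, 0 higher and 0 lower, with 21 higher and 25 lower over all genes and 2612 genes at an unadjusted p under 0.05. Leaving out 1 library gave 0 to 3 called imprinted genes, 0 to 1 higher and 0 to 2 lower, with none called without mock control 1. PEG10 ranged from −0.74 to 0.29, CDKN1C from −0.41 to −0.15, PLAGL1 from 0.12 to 0.25 and NDN from −0.069 to 0.080 in log2 fold change when 1 library was left out. Without a filter, 4, 4 and 7 listed imprinted genes were past 2-fold in CFIm25-m 1, 2 and 3 and 4 had a clone range over 1. With a mock control left out, CFIm25-m 3 had 1 to 3 past 2-fold, and with a library left out 0 to 1 had a clone range over 1. The calls over all genes were 181 higher and 180 lower, and 238 and 147 with total count scaling.

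The replicate numbers that the labels share were tried as a replicate block. Deviations of same-numbered samples correlated at 0.007 and 0.018 over genes in the 2 pairs, so no pairing was seen over all genes together. The 2 values are not independent, since the 2 mock controls deviate from their mean by equal and opposite amounts. A batch that touches only some genes was not tested. The block gave 1043 higher and 1064 lower over all genes and 8 imprinted genes, 2 higher and 6 lower, with PEG10 at −0.74 (adjusted p = 0.00116), GNAS at −0.20 (adjusted p = 0.0279) and NDN at −0.0031. Replicate 3 has no mock control, so the block term takes up CFIm25-m 3 and the contrast rests on CFIm25-m 1 and 2. Its log2 fold changes for PEG10, GNAS and NDN equal those of the fit without CFIm25-m 3. Few residual degrees of freedom remain in the block fit, and its added calls are not read as results.

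Depth limits the 8 imprinted genes under the filter, none above 11 reads in a library. Each clone is 1 library, and alleles and methylation were not measured.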

Other observations

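A wider list of 55 imprinted genes outside the 36 had 46 rows and 33 tested genes, with a median log2 fold change of 0.07. In it 1 gene rose and 1 fell, where 0.941% and 0.936% of all tested genes did. HM13, a signal peptide peptidase gene, stood at 2556 and 2611 normalized counts in the mock controls and at 3289, 3589 and 3529 in the clones (log2 fold change 0.42, limma adjusted p = 0.0440). CALCR, the calcitonin receptor gene on the same chromosome as PEG10, stood at 46.1 and 73.3 in the mock controls and at 14.03, 18.0 and 9.6 in the clones (log2 fold change −2.03, limma adjusted p = 0.0276). The clones of both genes did not overlap the controls.

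A range between the clones over 1 was seen in 5 of the 33 (ATP10A, GPR1, LPAR6, LRRTM1 and PWRN1), where 11.1% of all tested genes had one. The ranges of ATP10A (1.01) and PWRN1 (1.04) were close to the limit. GPR1 (3.01 to 18.3 normalized counts in the clones), LPAR6 (5.40 to 16.4) and LRRTM1 (10.6 to 23.1) were near the filter of 10, where ranges widen. INPP5F, which has an imprinted isoform and was picked after its values were seen, had 4171 and 4015 normalized counts in mock control and 4798, 2785 and 4745 in the clones. Its second clone was the only one below the controls, with a range of 0.78 and a log2 fold change of −0.04 between the groups (limma adjusted p = 0.952). The share of all tested genes with this pattern was not counted, so no link to PEG10 is read from it.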
